A study of Brassica juncea with 18 samples.

Results

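The protein kinases described here are the transcripts of developing *B. juncea* siliques whose deposited annotation lists a Pkinase domain. They number 190 of the 13342 transcripts of the expression table and belong to 121 of its 9446 unigenes, a unigene being the group of isoforms that the assembler placed together. The whole assembly holds 1715 transcripts with the domain, in 679 unigenes. Words in the best database hit sorted the unigenes into 8 CBL-interacting kinases, 10 members of the MAP kinase cascade, 2 calcium-dependent kinases, 1 SnRK, 21 receptor-like kinases and 79 others. Of those 79, 58 had a best hit without a name, such as "hypothetical protein", 23 carried a receptor ectodomain and 3 carried the NAF domain of CBL-interacting kinases. The class of others is therefore mainly one of missing names. A name here is that of the best hit, often in *Arabidopsis* or another crucifer, and not an identified *B. juncea* gene.

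The siliques came from field-grown *B. juncea* var. Varuna, hand self-pollinated, and were taken whole every 5 days from 5 to 30 days after pollination (DAP), which makes 6 stages. For the cold treatment, cut branches in water were moved to an illuminated chamber at 4 °C, for 6 h or for 12 h. Cut control branches were also kept in water, but outdoors in the field. There was 1 RNA-seq library for each stage and duration, 18 in all, so the 6 stages act as the replicates of a cold treatment. The sources used here do not give the harvest hour, so that cold and harvest hour cannot be told apart.

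Protein kinases pass on signals by adding phosphate to other proteins. Receptor-like kinases read signals at the cell surface. Calcium signals, which are among the early responses of plant cells to cold, are read by calcium-dependent kinases directly and by CBL-interacting kinases (CIPKs) through calcineurin B-like (CBL) sensor proteins. MAP kinase cascades relay signals from a kinase kinase kinase over a kinase kinase to a MAP kinase. SnRKs link abscisic acid and energy status to transcription. The SnRK3 branch was sorted here with the CBL-interacting class, so that the SnRK class does not speak for it.

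Values are FPKM, that is fragments corrected for transcript length and for the size of the library, summed over the isoforms of a unigene. A change is a difference of log2(FPKM + 1), averaged over the 6 stages and given with its standard error (SE). This scale understates the changes of unigenes with low FPKM. A unigene was called where limma, with stage as a block, gave an adjusted p under 0.05 over all 9446 unigenes. For cold changes, these p-values measure how far the change of single libraries varies between stages. That spread holds differences of the cold change between stages as well as variation between libraries. For late against early stages, they measure the spread between stage means. Every transcript of the table had first been selected by the authors for a difference between libraries of this same series, so that calls made here are no independent evidence of a response. In whole siliques, fewer cells of a type and less RNA per cell cannot be told apart.

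Summed FPKM over the table ranged from 71973 to 188212 per library, and 112 to 120 of the 121 kinase unigenes were above 0 in a library. FPKM hold no read counts, and the read totals of the libraries were not used here. Kinase unigenes had a median mean level of 3.01 FPKM, against 2.23 FPKM for all unigenes of the table, and 88 of 121 reached a mean of 1 FPKM. By the study's methods, read filtering kept under 90% of reads in every 12 h library and in all libraries of 25 and 30 DAP. In the rest it kept more. Control and 6 h libraries thus share a read class (under or over 90%) at every stage. The 12 h libraries can be compared with either of them within 1 class only at 25 and 30 DAP. The 3 chlorophyll a/b-binding unigenes were taken as markers of green tissue, which in whole siliques need not be the wall alone. They summed to 41.3 to 97.2 FPKM in controls, 41.4 to 99 FPKM after 6 h and 20.7 to 67.9 FPKM after 12 h, with none at 0. They were lower at 12 h than in control at 5, 10, 20 and 30 DAP. Their part in the 12 h results was not tested. The 10 unigenes with pollen or anther names summed to 21.2 to 239 FPKM, with 1 to 4 of them at 0 in a library.

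Some kinase unigenes were higher after the cold treatment than in control, and others were lower. After 6 h, 18 of 121 rose and 12 fell. Over the whole table, 12.0% of unigenes rose and 9.15% fell, so the kinases as a group stood near the background in both directions. After 12 h, 9 of 121 rose and 12 fell, against 9.55% and 11.1% of all unigenes. With libraries rescaled by their median ratio, the 12 h counts were 14 and 11. They were 8 and 7 without the 15 DAP stage, 7 and 5 without the block and 8 and 4 with read class as a term, so that neither direction prevailed at 12 h under all settings. The median change of the 121 was 0.00 at 6 h and -0.03 at 12 h, and that of all unigenes was 0.00 and -0.05. A total of 36 kinase unigenes were called at one duration or the other. The same share over all unigenes was not taken, so that this total is no result about kinases. The comparisons of 6 h and 12 h share the same control libraries.

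**Figure D1:**
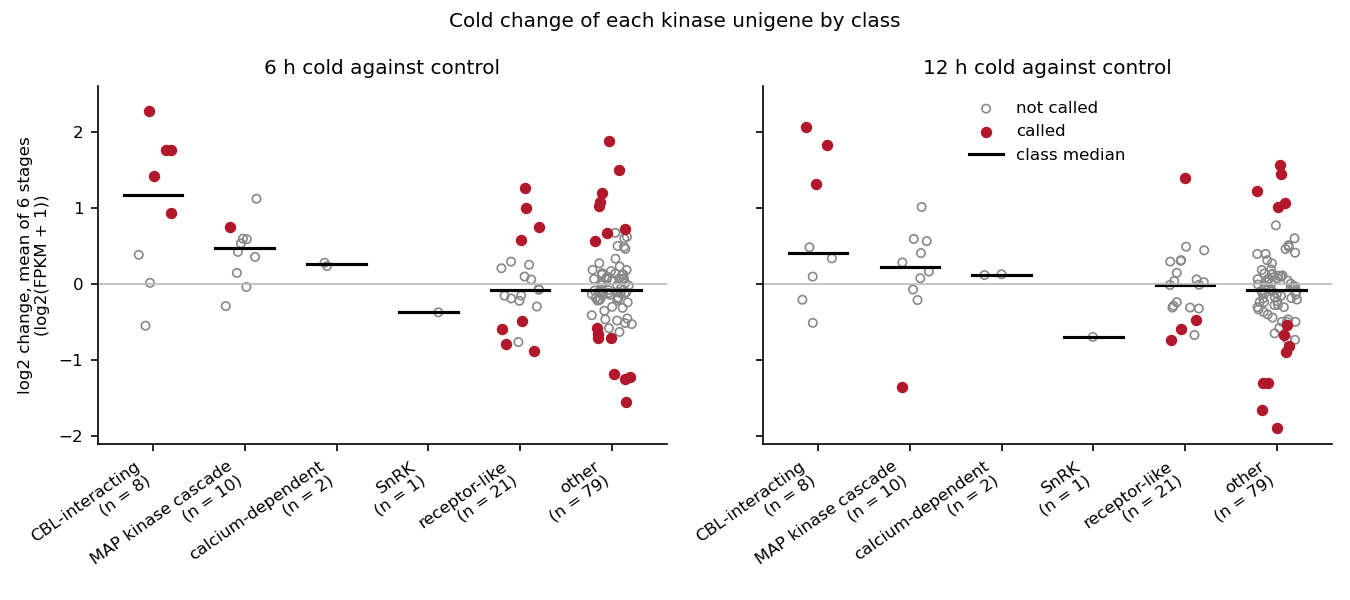
Cold change of each of the 121 kinase unigenes, by class, after 6 h (left) and 12 h (right). The y axis is the mean log2 change of 6 stages on the log2(FPKM + 1) scale, each point is a unigene, filled red where called, and bars are class medians. The CBL-interacting class had a median of 1.18 at 6 h and 0.41 at 12 h and no called unigene below 0.

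Differences between the classes were not tested. Of the 8 CBL-interacting unigenes, 5 rose at 6 h and 3 at 12 h, and none fell at either duration. Of the 10 unigenes of the MAP kinase cascade, 1 rose at 6 h and 1 fell at 12 h. The median change of these 10 was 0.48 at 6 h, with 8 above 0, and 0.22 at 12 h, with 7 above 0. All unigenes had medians of 0.00 and -0.05. At an unadjusted p under 0.05 (limma), 4 of the 10 were higher and none lower at 6 h. At 12 h, 3 were higher and 1 was lower. Over all unigenes, 30.5% and 31.7% passed in either direction. Neither of the 2 calcium-dependent unigenes nor the SnRK unigene was called by limma. Of these, only the SnRK unigene differed at an unadjusted p under 0.05, at 12 h. Receptor-like unigenes split evenly at 6 h, with 4 of 21 higher and 4 lower, with 1 higher and 3 lower at 12 h. The others also split evenly at 6 h, with 8 of 79 higher and 8 lower (10.1% each), while 5 were higher and 8 lower after 12 h. These counts of the others stand near the shares over all unigenes. Leaving out a stage took the receptor-like counts at 6 h to between 2 and 4 in either direction, and the 3 that fell at 12 h to between 1 and 5. Among the others, 5 rose at 6 h without the 15 DAP stage, and 5 fell at 12 h without the 15 or 30 DAP stage. The CBL-interacting count at 6 h was 5 whichever stage was left out.

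CIPK9 (c69684_g1), best known in *Arabidopsis* for a role in potassium homeostasis, was the most abundant kinase of the table, with a mean of 211 FPKM over the 18 libraries. In control siliques it stood at 31.4, 56.7, 80.1, 78.7, 81.0 and 109.7 FPKM from 5 to 30 DAP. After 6 h it stood at 272, 255, 354, 169, 191 and 206 FPKM. After 12 h it stood at 105, 316, 514, 347, 369 and 267 FPKM. All 6 libraries of 6 h lay above all controls, and only the 12 h library of 5 DAP lay within the range of the controls, although above the control of its own stage. The change was 1.76 ± 0.28 (SE, n = 6 stages) at 6 h, adjusted p = 0.000478 (limma), and 2.07 ± 0.28 at 12 h, adjusted p = 0.000147, higher at 6 of 6 stages each time. Both assembled isoforms moved alike, by 1.78 and 1.72 at 6 h and by 2.09 and 2.01 at 12 h.

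CIPK9 took a larger part of the kinase FPKM in cold libraries than in controls at 6 of 6 stages after each duration. In control libraries it took 5.87 to 11.6% of the summed kinase FPKM, after 6 h 14.3 to 32.5% and after 12 h 16.5 to 43.6%. The 121 kinase unigenes together took 0.586 to 0.744% of all summed FPKM in controls, and that share was higher after 6 h at 6 of 6 stages and after 12 h at 5 of 6. Without CIPK9 it was higher than in control at 3 of 6 stages after 6 h and at 1 of 6 after 12 h.

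CIPK21 (c70927_g2), known in *Arabidopsis* from responses to salt and osmotic stress, rose sharply at 6 h and was near control again at 12 h. Controls held 12.7, 11.9, 10.2, 8.89, 14.8 and 21.9 FPKM. The 6 h libraries held 72.5, 51.6, 88.6, 58.5, 76.9 and 56.7 FPKM. The 12 h libraries held 8.28, 16.5, 27.1, 16.9, 23.9 and 25.1 FPKM. Every 6 h library lay above every control and every 12 h library, while the 12 h and control ranges overlapped. The change at 6 h was 2.28 ± 0.24 (SE), adjusted p = 1.08e-05, the largest of any kinase unigene at either duration. At 12 h it was 0.48 ± 0.24, adjusted p = 0.185, a difference that was called without the 5 DAP stage (adjusted p = 0.035). The 12 h level lay below that of 6 h by -1.79 ± 0.24, adjusted p = 0.000437. The 3 isoforms gave 2.0 to 2.28 at 6 h and 0.34 to 0.58 at 12 h.

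CIPK17 (c57778_g1) was scarce in controls, at 0.93, 0.55, 0.45, 0.48, 0.96 and 0.71 FPKM. It reached 7.03, 7.84, 6.62, 3.40, 2.34 and 3.16 FPKM after 6 h and 3.25, 7.17, 9.42, 5.96, 2.23 and 4.18 FPKM after 12 h. Neither cold range touched the control range. The changes were 1.76 ± 0.26 (SE) at 6 h, adjusted p = 0.000256, and 1.82 ± 0.26 at 12 h, adjusted p = 0.000226. The youngest 3 stages had the highest levels after 6 h.

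CIPK12 (c67781_g3) rose at both durations, by 0.93 ± 0.17 at 6 h (adjusted p = 0.00121) and by 1.31 ± 0.17 at 12 h (adjusted p = 8.86e-05). Its controls ran from 1.5 to 8.77 FPKM with a median of 2.69, the 6 h libraries from 4.92 to 9.73 with a median of 5.94, and the 12 h libraries from 5.40 to 15.4 with a median of 8.54. Only the 30 DAP control, at 8.77 FPKM, reached into the cold ranges. CIPK4 (c57677_g1) followed the course of CIPK21 at a lower level. Its median was 3.23 FPKM in control, 9.94 FPKM after 6 h and 3.94 FPKM after 12 h. The change at 6 h was 1.42 ± 0.23, adjusted p = 0.00054, and 12 h lay below 6 h by -1.08 ± 0.23, adjusted p = 0.0173, at 6 of 6 stages. For CIPK4 and CIPK12, 1 of the 2 isoforms in the table carries the kinase domain. The counts of the class were the same with only domain-bearing isoforms summed.

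**Figure D2:**
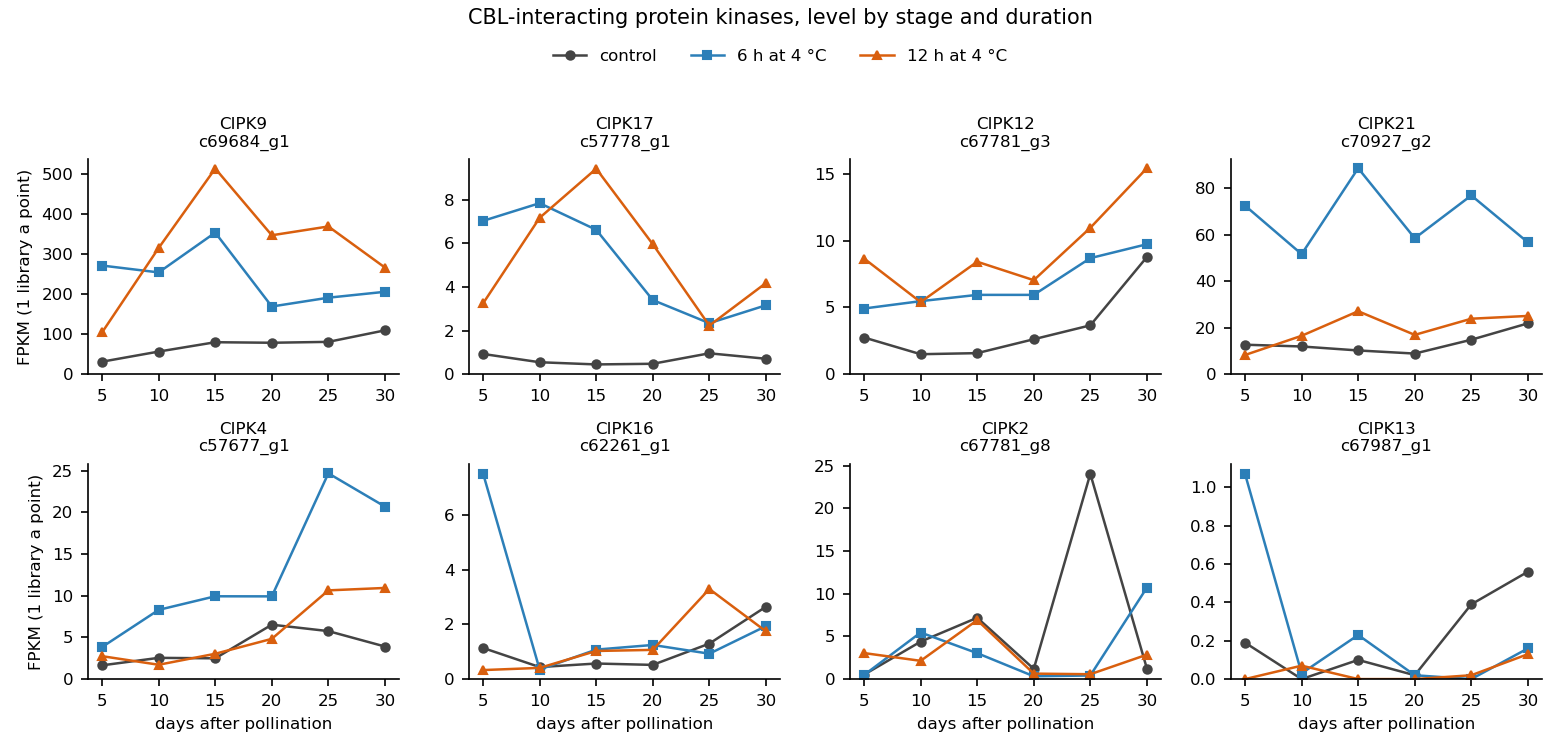
Level of the 8 CBL-interacting unigenes in each library, with days after pollination on the x axis and FPKM on the y axis, 1 library per point and no error bar. CIPK9, CIPK17 and CIPK12 were above control at all stages after both durations, CIPK21 and CIPK4 peaked at 6 h, and the other 3 show single high libraries.

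The other 3 CIPKs were not called and each had 1 library well above the rest. CIPK16 (c62261_g1) stood at 7.53 FPKM after 6 h at 5 DAP and at 0.33 to 3.30 FPKM elsewhere. CIPK13 (c67987_g1) stood at 1.07 FPKM in the same library and at 0.00 to 0.56 FPKM elsewhere. CIPK2 (c67781_g8) stood at 24.1 FPKM in the 25 DAP control and at 0.33 to 10.7 FPKM elsewhere. The unnamed NAF-domain unigene c67781_g7, from the same component of the assembly as CIPK2 and CIPK12, was also highest in the 25 DAP control, at 38.1 FPKM, against 0.34 to 15.9 FPKM elsewhere. The other NAF-domain unigenes without a name, c66250_g1 and c68075_g2, had differences of -0.24 ± 0.27 and 0.00 ± 0.30 at 6 h and of -0.72 ± 0.27 and 0.51 ± 0.30 at 12 h, none of them called (adjusted p of 0.0797 and 0.286 at 12 h). After 12 h, c66250_g1 was below control at 5 of 6 stages. Grouping by the NAF domain was added after the values were seen.

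Among the partners of these kinases, 1 of 4 CBL unigenes was called higher at 6 h and 2 at 12 h, where 12.0% and 9.55% of all unigenes were. None was called lower, although CBL10 (c68281_g1) lay below control by -0.74 ± 0.26 at 6 h (adjusted p = 0.0578, 5 of 6 stages) and by -0.63 ± 0.26 at 12 h (adjusted p = 0.108), both with an unadjusted p under 0.05. The unigene named as a putative calcineurin B-like protein, c59036_g3, had a control median of 9.80 FPKM, a 6 h median of 23.1 FPKM and a 12 h median of 24.9 FPKM. It changed by 1.19 ± 0.34 at 6 h (adjusted p = 0.0206) and by 1.33 ± 0.34 at 12 h (adjusted p = 0.0113), higher at 5 of 6 stages each time. The exception was 25 DAP, where the control held 26.8 FPKM. The 6 h call was lost without the 5, 10, 15 or 20 DAP stage and the 12 h call without the 5, 15 or 30 DAP stage, with adjusted p up to 0.0925 and 0.203 over all settings, the latter with read class as a term. CBL1 (c45076_g1) rose by 1.05 ± 0.30 at 12 h (adjusted p = 0.0253), also at 5 of 6 stages, a call lost without the 5, 15, 20 or 30 DAP stage, without the block (adjusted p = 0.0578) and with read class as a term (adjusted p = 0.358).

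Calmodulin 5 (c67835_g3), a calcium sensor, was the partner that changed most. It stood at 2.23 to 6.98 FPKM in controls, at 18.4 to 63.9 FPKM after 6 h and at 35.9 to 61.1 FPKM after 12 h, without overlap between control and cold. The changes were 2.84 ± 0.29 (adjusted p = 8.21e-06) at 6 h and 3.16 ± 0.29 (adjusted p = 4.25e-06) at 12 h. The other 2 calmodulin unigenes were not called. Of 4 protein phosphatases 2C, enzymes that counteract SnRK and other kinases, 1 rose at 6 h and another at 12 h. Over all unigenes, 12.0% rose at 6 h and 9.55% at 12 h. At an unadjusted p under 0.05 (limma), 2 of the 4 were higher at 6 h and 3 at 12 h, and none was lower. Protein phosphatase 2C 77 (c46380_g1) rose at 6 h by 1.16 ± 0.22 (adjusted p = 0.00169), from a control median of 0.97 FPKM to 3.94 FPKM. Its control and 6 h ranges overlapped, and its 6 h call was lost without the block (adjusted p = 0.0567). A second one (c67396_g1) rose at 12 h by 1.29 ± 0.26 (adjusted p = 0.00286), from a median of 4.99 FPKM to 19.8 FPKM. That call was lost with read class as a term (adjusted p = 0.124) and without the block (adjusted p = 0.373). None of the 4 abscisic acid receptor unigenes and none of the 5 two-component response regulators was called by limma at either duration. At an unadjusted p under 0.05, 1 abscisic acid receptor unigene passed, c4628_g1 with -0.55 at 12 h, and none of the response regulators.

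In the MAP kinase cascade the most abundant unigene, MAP kinase kinase 9 (MKK9, c55678_g1), fell after 12 h. In *Arabidopsis* this kinase acts in ethylene and defence signalling. Controls held 10.1, 15.1, 23.8, 23.5, 28.4 and 37.3 FPKM, higher in older siliques. After 12 h the level was 3.0, 8.85, 10.9, 6.08, 13.5 and 8.06 FPKM, lower than control at each of the 6 stages. The 6 h libraries, at 14.3 to 22.7 FPKM, lay within the range of the controls and above all 12 h libraries. The change was -0.29 ± 0.23 at 6 h (adjusted p = 0.455) and -1.35 ± 0.23 at 12 h (adjusted p = 0.000721), and 12 h lay below 6 h by -1.06 ± 0.23 (adjusted p = 0.0173). This 12 h call was lost once read class was a term of the fit (adjusted p = 0.061). At 25 and 30 DAP, where the durations share a read class, MKK9 went from 28.4 to 13.5 and from 37.3 to 8.06 FPKM.

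MAPKKK15 (c67524_g2) was the member of the cascade that rose at 6 h. Its controls held 0.11 to 0.67 FPKM and its 6 h libraries 0.70 to 2.15 FPKM, without overlap. The change was 0.75 ± 0.20, adjusted p = 0.0133, and 0.56 ± 0.20 at 12 h, adjusted p = 0.0563. MAPKKK14 (c63174_g1) varied more between stages. After 6 h it stood at 37.9 and 25.5 FPKM at 5 and 30 DAP, against 4.35 and 2.70 FPKM in their controls, but at 1.48 to 6.67 FPKM at the 4 stages between. Its mean change of 1.12 ± 0.44 was not called (adjusted p = 0.0897). MAPKKK17 (c68637_g1) and MAPKKK18 (c62917_g1), which respond to abscisic acid in *Arabidopsis*, had differences of 0.53 ± 0.26 and 0.42 ± 0.29 at 6 h and were not called. The MAP kinases themselves, MPK1 (c67416_g2) and MPK12 (c61209_g3), stayed at or below 3.42 FPKM in all libraries and had differences of 0.15 ± 0.13 and -0.04 ± 0.16 at 6 h, not called.

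Calcium-dependent kinase 29 (CPK29, c63638_g4) was far more abundant than CPK25 (c68870_g1), with means of 28.2 and 0.475 FPKM. CPK29 differed more between stages than between durations. In controls it went from 6.98 FPKM at 5 DAP over 10.4, 20.1 and 33.7 to 46.2 and 40.1 FPKM at 25 and 30 DAP. After 12 h it went from 6.61 FPKM at 5 DAP to 64.0 FPKM at 30 DAP. Its change was 0.28 ± 0.20 at 6 h (adjusted p = 0.394) and 0.13 ± 0.20 at 12 h (adjusted p = 0.739). SnRK2.9 (c60930_g2) was a unigene of the youngest siliques, at 7.59, 15.4 and 6.14 FPKM in the 5 DAP libraries of control, 6 h and 12 h, and at 0.20 to 3.26 FPKM later. It was lower than control at 6 of 6 stages after 12 h, by -0.69 ± 0.24, which was not called (adjusted p = 0.0548) but was without the 5 DAP stage (adjusted p = 0.0202). Its 6 h change was -0.37 ± 0.24 (adjusted p = 0.343), with 5 DAP in the opposite direction to the other stages, and without that stage it was called (adjusted p = 0.0472).

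Among receptor-like kinases, the PR5-like receptor kinase (c57266_g1), whose outer part resembles a pathogenesis-related protein, rose in steps. Controls held 1.45, 1.23, 1.15, 0.79, 1.41 and 1.33 FPKM, 6 h libraries 3.83, 3.93, 2.10, 1.70, 3.31 and 2.04 FPKM, and 12 h libraries 8.72, 4.34, 3.88, 4.59, 3.90 and 4.49 FPKM. At each stage the order was control, 6 h, 12 h, and neither cold group overlapped the controls. The changes were 0.74 ± 0.16 (adjusted p = 0.00435) and 1.39 ± 0.16 (adjusted p = 3.85e-05). The step from 6 h to 12 h was 0.64 ± 0.16 (adjusted p = 0.040), and it lost its call in 10 of 13 other settings, among them each setting that left out the 5, 10, 15, 20 or 30 DAP stage.

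A putative receptor-like protein kinase, c68362_g1, showed the 6 h peak of CIPK21. It stood at 0.51, 2.18, 0.85, 3.25, 4.18 and 4.41 FPKM in controls, at 2.89, 2.47, 4.45, 11.6, 16.4 and 11.8 FPKM after 6 h and at 1.29, 0.67, 1.64, 1.47, 5.84 and 4.97 FPKM after 12 h. The 10 DAP stage barely differed from its control. The change was 1.27 ± 0.24 at 6 h (adjusted p = 0.00152) and -0.01 ± 0.24 at 12 h, and 12 h lay below 6 h by -1.28 ± 0.24 (adjusted p = 0.00696). The most abundant receptor-like kinase, the leucine-rich repeat (LRR) receptor At1g53430-like c72870_g2, rose at 6 h from a median of 13.5 to 23.9 FPKM, by 1.0 ± 0.33 (adjusted p = 0.0429). It lost that call without the 10, 15, 20 or 30 DAP stage (adjusted p up to 0.173 over all settings). A further LRR receptor kinase, c67695_g1, rose by 0.58 ± 0.18 (adjusted p = 0.030), a call lost without the 5, 10, 15, 25 or 30 DAP stage.

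Of the 4 receptor-like kinases that fell at 6 h, 3 carry lectin or cysteine-rich names and 1 is an LRR kinase. Over all unigenes 9.15% fell at 6 h, and 4 calls are too few for a result about any of these kinds. The G-type lectin S-receptor-like kinase c75029_g1 fell at 6 h at 6 of 6 stages, from 2.79 to 10.8 FPKM in controls to 0.97 to 4.12 FPKM, by -0.88 ± 0.14 (adjusted p = 0.000566). At 12 h its change was -0.31 ± 0.14, not called. Cysteine-rich receptor-like kinase 41 (c64675_g1) changed by -0.78 ± 0.19 at 6 h and -0.73 ± 0.19 at 12 h (adjusted p = 0.00981 and 0.0157), from 1.04 to 2.51 FPKM in controls to 0.13 to 1.11 and 0.26 to 1.16 FPKM. The 12 h call was lost without the 20 DAP stage (adjusted p = 0.0548) and with read class as a term (adjusted p = 0.0794). The lectin kinase c64615_g1, at 0.27 to 0.96 FPKM in controls, changed by -0.48 ± 0.13 at both durations (adjusted p = 0.0157 and 0.0184), a call lost without the 10 or 15 DAP stage at each and without the 30 DAP stage at 6 h. Its 12 h call was also lost with read class as a term (adjusted p = 0.282). The LRR transmembrane kinase c72172_g2 changed by -0.59 ± 0.16 and -0.60 ± 0.16 (adjusted p = 0.0159 and 0.0157), and both calls were lost without the 10, 15 or 20 DAP stage. At 12 h read class as a term gave an adjusted p of 0.44.

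**Figure D3:**
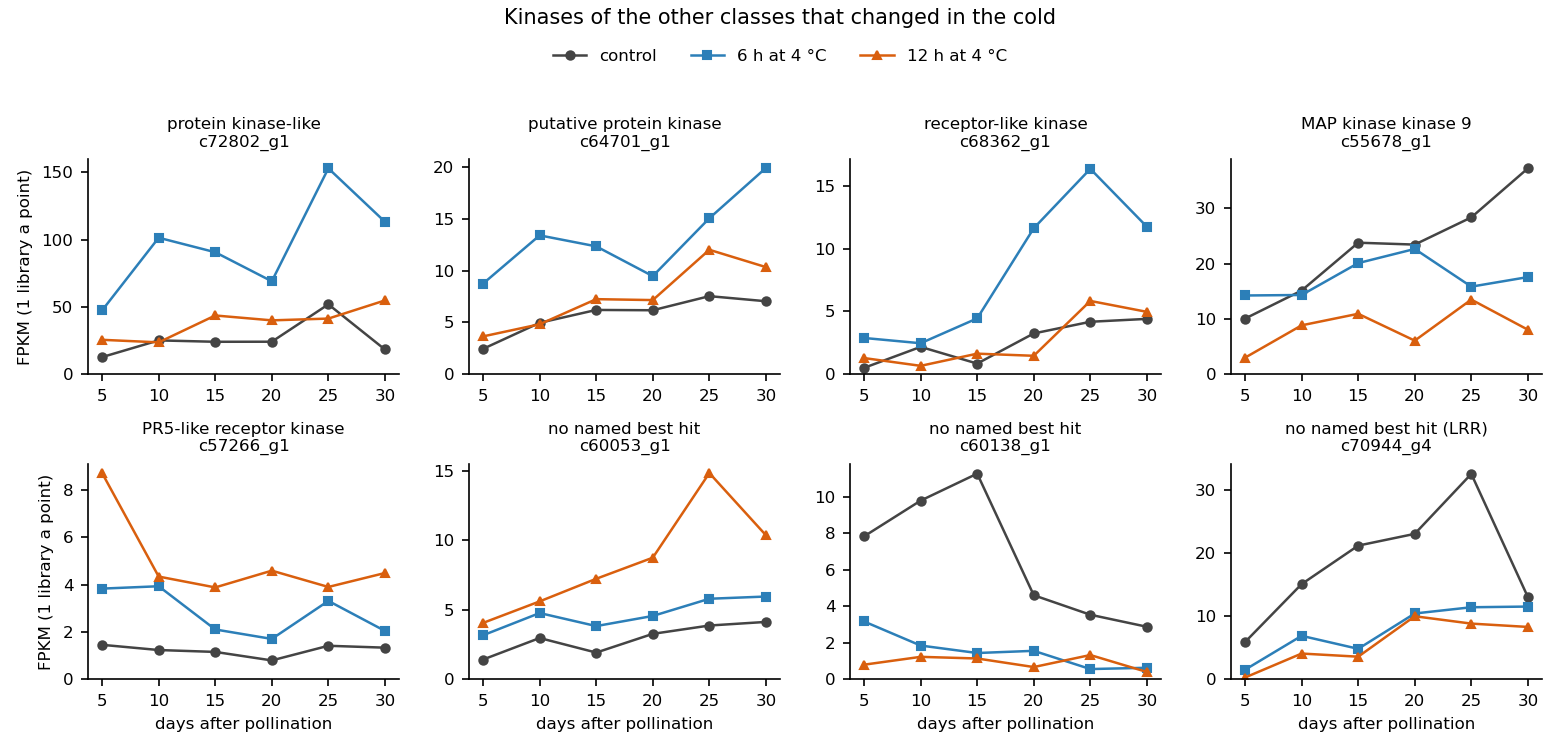
Level of 8 kinases of the other classes in each library, with days after pollination on the x axis and FPKM on the y axis, 1 library per point and no error bar. In the upper row, 3 kinases peak at 6 h and MKK9 is lowest at 12 h. In the lower row, c57266_g1 and c60053_g1 are highest at 12 h, and c60138_g1 and c70944_g4 are below control at all stages.

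In the remaining class, c72802_g1, named only as protein kinase-like, changed most at 6 h. Its controls held 12.7, 25.1, 24.1, 24.2, 51.9 and 18.4 FPKM, its 6 h libraries 47.4, 101, 90.6, 69.0, 153 and 113 FPKM, and its 12 h libraries 25.6, 23.7, 43.6, 40.0, 41.3 and 54.8 FPKM. At every stage 6 h was the highest of the 3 durations. The change was 1.87 ± 0.22 at 6 h (adjusted p = 3.34e-05) and 0.60 ± 0.22 at 12 h (adjusted p = 0.0704). The putative protein kinase c64701_g1 had the same course at lower levels, with 1.08 ± 0.16 at 6 h (adjusted p = 0.000214) and 0.31 ± 0.16 at 12 h. Of the unigenes without a name, c67587_g2 rose at 6 h by 1.5 ± 0.29 (adjusted p = 0.00194), c59863_g1 by 1.02 ± 0.23 (adjusted p = 0.00521) and c67757_g1, which also carries a fibrillin domain of plastid lipid-associated proteins, by 0.72 ± 0.14 (adjusted p = 0.00195). For c67587_g2 the 10 DAP library after 6 h stood highest, at 49.0 FPKM against 5.11 FPKM in its control.

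Other unnamed kinases rose more at 12 h than at 6 h. The LRR kinase c69931_g1 had control levels of 0.57 to 2.29 FPKM and 12 h levels of 2.02 to 11.1 FPKM. It changed by 0.67 ± 0.21 at 6 h (adjusted p = 0.0328) and by 1.56 ± 0.21 at 12 h (adjusted p = 0.000101). For c60053_g1 the changes were 0.56 ± 0.15 (adjusted p = 0.0154) and 1.23 ± 0.15 (adjusted p = 5.57e-05), with control, 6 h and 12 h in ascending order at all 6 stages. Called only at 12 h were c65492_g1, by 1.45 ± 0.21 (adjusted p = 0.000244), and c100997_g1, a kinase with a legume-lectin ectodomain, by 1.06 ± 0.24 (adjusted p = 0.00507). The call of c100997_g1 was lost with read class as a term (adjusted p = 0.147) and without the block (adjusted p = 0.0519). The rise of c71512_g2, 1.2 ± 0.34 at 6 h and 1.01 ± 0.34 at 12 h, was uneven: after 6 h it was absent at 25 DAP, where control held 18.8 FPKM and the 6 h library 14.4 FPKM. Its 12 h call (adjusted p = 0.0486) was lost in 10 of 13 other settings, those without the 5, 10, 15, 20 or 30 DAP stage included.

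The strongest falls were in this class too. The unnamed kinase c60138_g1 stood at 7.83, 9.79, 11.3, 4.60, 3.53 and 2.87 FPKM in controls, at 3.16, 1.84, 1.43, 1.55, 0.55 and 0.62 FPKM after 6 h and at 0.79, 1.22, 1.13, 0.66, 1.32 and 0.39 FPKM after 12 h. All 12 h libraries lay below all controls. It changed by -1.55 ± 0.22 at 6 h (adjusted p = 0.000189) and by -1.88 ± 0.22 at 12 h (adjusted p = 4.09e-05). The LRR kinase c70944_g4 changed by -1.19 ± 0.22 and -1.65 ± 0.22 (adjusted p = 0.00156 and 0.000126), with control levels of 5.89 to 32.6 FPKM against 0.25 to 9.99 FPKM after 12 h. Both calls of c70944_g4 were lost without the block (adjusted p = 0.228 and 0.0641). The putative serine/threonine kinase c68779_g2 changed by -1.24 ± 0.28 and -1.30 ± 0.28 (adjusted p = 0.0054 and 0.00428). At 5 DAP its 12 h library, with 5.03 FPKM, did not lie below the control of 4.48 FPKM.

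Kinases with a wall-associated (WAK) ectodomain, a family that spans plasma membrane and cell wall, had 3 unigenes in the table, all in the class of others. None rose, and 2 fell at each duration, c65493_g2 at both. Over all unigenes, 9.15% fell at 6 h and 11.1% at 12 h, and counts from 3 unigenes are no result about this family. At 6 h, c65493_g2 fell by 1.22 ± 0.23 on the log2 scale (adjusted p = 0.00166) and c68821_g1 by 0.66 ± 0.19 (adjusted p = 0.021). At 12 h, c65493_g2 changed by -0.81 ± 0.23 (adjusted p = 0.0227) and c70324_g3 by -1.30 ± 0.24 (adjusted p = 0.00149). For c70324_g3 the controls held 7.79 to 30.2 FPKM and the 12 h libraries 2.43 to 11.5 FPKM. Its 12 h call was lost with read class as a term (adjusted p = 0.0829). Of the 20 unigenes with an LRR ectodomain, over all classes, 3 were called higher and 4 lower after 6 h, and 1 and 3 after 12 h. With 12.0% and 9.15% of all unigenes called at 6 h and 9.55% and 11.1% at 12 h, these small counts are no result about LRR kinases. Among those that fell, c66149_g1 changed by -0.71 ± 0.19 at 6 h (adjusted p = 0.0134, a call lost without the 5 DAP stage) and c72514_g2 by -0.58 ± 0.18 and -0.66 ± 0.18 (adjusted p = 0.0361 and 0.0183). The 12 h call of c72514_g2 was lost without the 15, 20 or 30 DAP stage. These groups by ectodomain were formed after the values were seen.

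**Figure D4:**
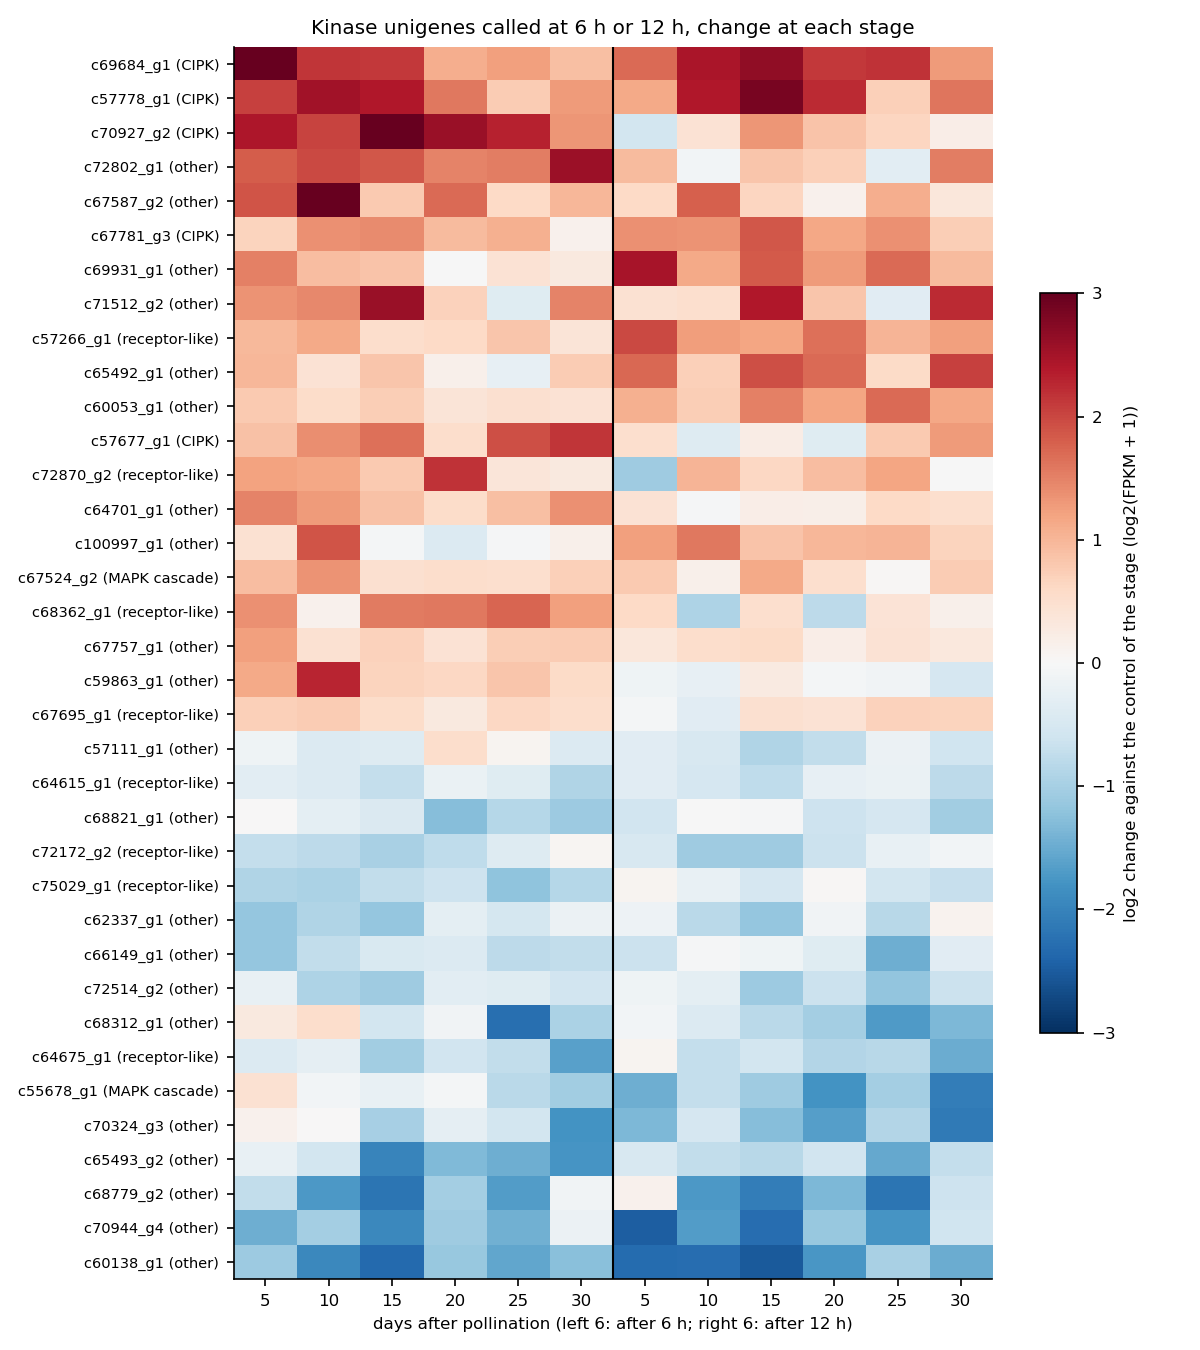
Log2 change against the control of the same stage, on the log2(FPKM + 1) scale, for the 36 kinase unigenes called at 6 h or 12 h, with 6 stages at each duration and 1 library against 1 library in each cell. Rows are ordered by mean change, red is higher and blue lower than control, and 2 of 432 cells pass the colour limit of 3. The values run from -2.53 to 3.07.

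In the direct comparison of the 2 cold durations, 5 kinase unigenes had a higher level at 12 h and 8 had a higher level at 6 h, against 0.963% and 3.24% of all unigenes. Besides CIPK21, CIPK4, MKK9 and c68362_g1, those lower at 12 h were c72802_g1 (-1.27 ± 0.22, adjusted p = 0.0043), c64701_g1 (-0.77 ± 0.16, adjusted p = 0.0136), c59863_g1 (-1.15 ± 0.23, adjusted p = 0.011) and c67208_g1. The last of these, chosen for naming after its values were seen, had 0.36 to 6.34 FPKM after 6 h and 0.07 to 0.44 FPKM after 12 h. Those higher at 12 h were the PR5-like kinase c57266_g1, c60053_g1, c69931_g1, c65492_g1 and c75029_g1, the lectin kinase that was low at 6 h (0.57 ± 0.14, adjusted p = 0.0414). All 13 went in the called direction at both 25 and 30 DAP, where the durations share a read class. With read class as a term, where the 12 h changes rest on the 12 h libraries of 25 and 30 DAP, none of the 13 was called. Leaving out 1 stage brought the 5 higher calls to 0 (without 15 or 20 DAP), 2 (without 25 or 30 DAP) or 3 (without 5 DAP), and the 8 lower calls to 4 (without 15 DAP) or 5 (without 5 or 10 DAP). The calls of CIPK21, c72802_g1 and c68362_g1 held without each stage in turn.

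The cold change was also taken for early stages (5 to 15 DAP) and late stages (20 to 30 DAP) apart, with both durations averaged. At early stages 15 kinase unigenes rose and 5 fell, against 9.73% and 7.27% of all unigenes. At late stages 11 rose and 10 fell, against 7.01% and 5.74%. CIPK9 changed by 2.36 ± 0.28 at early and 1.47 ± 0.28 at late stages (adjusted p = 0.000213 and 0.00515), CIPK17 by 2.22 ± 0.29 and 1.36 ± 0.29, and CIPK21 by 1.44 ± 0.30 and 1.32 ± 0.30. Leaving out 1 stage of a phase brought the 15 higher calls of early stages to 8 (without 5 or 15 DAP) or 9 (without 10 DAP), and the 5 lower calls to 2 (without 10 or 15 DAP). It brought the 11 higher calls of late stages to 3, 6 and 4 (without 20, 25 and 30 DAP) and the 10 lower calls to 4, 5 and 2. With read class as a term, early stages had 4 higher and 2 lower calls.

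The difference between the phases was itself tested, and limma called no kinase unigene and no unigene of the table (0.0%). At an unadjusted p under 0.05 there were 5 kinase unigenes and 508 of all 9446. CIPK9 was among the 5, with a late minus early difference of -0.90 ± 0.39 (SE, adjusted p = 0.908). The others were c70944_g4 (0.78 ± 0.34), c68312_g1 (-1.07 ± 0.42), c68821_g1 (-0.67 ± 0.27) and c70531_g1 (0.75 ± 0.29), the last of which went from 47.9 FPKM in control to 101 FPKM after 12 h at 30 DAP but from 16.5 to 10.2 FPKM at 5 DAP. No kinase was therefore shown to respond differently to cold in the 2 phases.

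Between the phases themselves, with the 3 libraries of a stage averaged, 2 kinase unigenes were higher late and none was lower, against 2.65% and 0.169% of all unigenes. At an unadjusted p under 0.05 there were 32 higher and 6 lower, together 31.4% of the kinase unigenes against 27.9% of all unigenes. The unnamed kinase c67970_g2 stood at 0.60, 0.84 and 1.48 FPKM in the early controls and at 18.8, 26.1 and 73.8 FPKM in the late ones. The cold libraries followed closely, with 74.3 and 68.9 FPKM at 30 DAP after 6 h and 12 h. The difference was 4.07 ± 0.56 (SE, 3 against 3 stage means, adjusted p = 0.0349), while its cold differences were -0.10 ± 0.16 and 0.13 ± 0.16, not called. The LRR kinase c72172_g2, the one that fell in the cold, was higher late by 1.91 ± 0.35 (adjusted p = 0.0466), from 4.13, 5.20 and 9.62 FPKM to 17.0, 21.7 and 20.6 FPKM in controls. Neither call held without the 5, 10, 25 or 30 DAP stage, while 4 kinase unigenes were called higher late without 15 DAP and 15 without 20 DAP. The call of c72172_g2 was also lost with control libraries alone, under median ratio scaling and with a pseudocount of 0.1 (adjusted p up to 0.238 over all settings, limma). Over the same stages the 21 seed and embryo marker unigenes summed to 3.1 to 21.2 FPKM in early and 75.8 to 1605 FPKM in late libraries, with 5 to 13 of them at 0 in each early library and 0 to 3 in each late one. Their part in these differences was not tested.

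**Figure D5:**
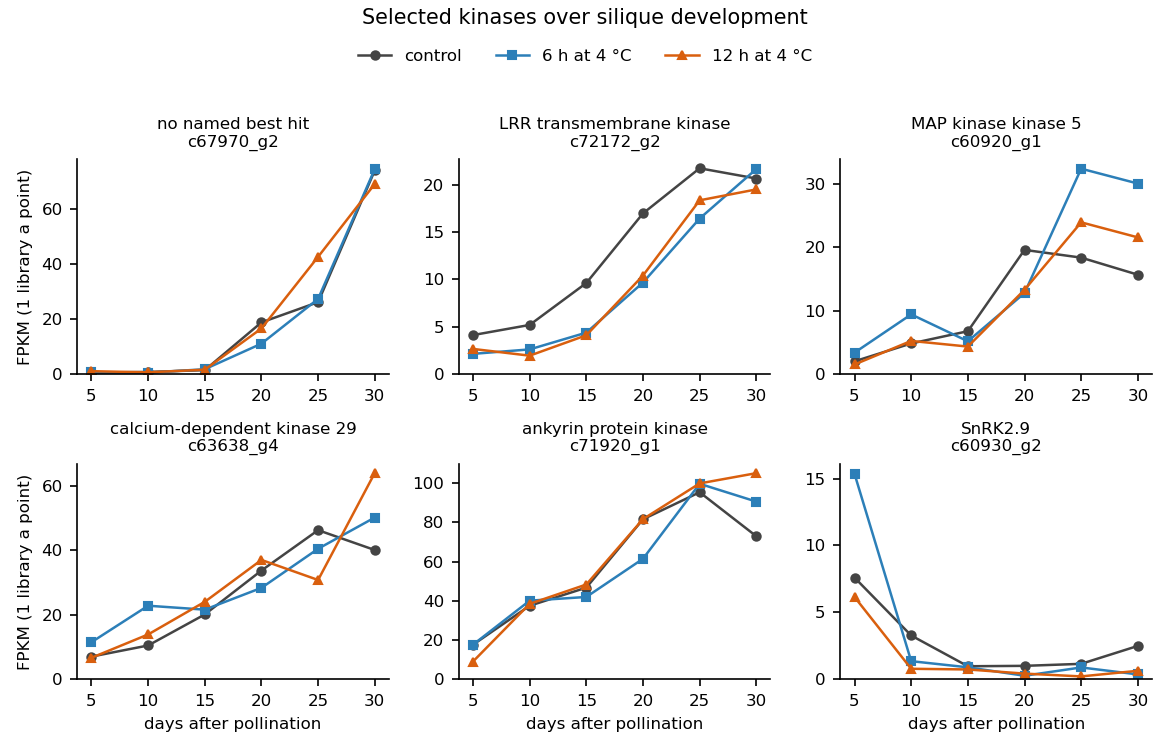
Level of 6 kinases over silique development, with days after pollination on the x axis and FPKM on the y axis, 1 library per point and no error bar. Of these, c67970_g2 and c72172_g2 were called higher at late stages. CPK29, MKK5 and the ankyrin protein kinase had higher stage means at all late stages than at early ones without being called, and SnRK2.9 was highest at 5 DAP.

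In 39 of the 121 kinase unigenes all late stage means lay above all early ones, against 24.4% of all unigenes, and in 10 all lay below, against 15.8%. MKK5 (c60920_g1), which in *Arabidopsis* acts upstream of stress-responsive MAP kinases, had 2.04, 4.85 and 6.78 FPKM in early controls and 19.6, 18.4 and 15.7 FPKM in late ones, a difference of 1.98 ± 0.39 that was not called (adjusted p = 0.0539). The ankyrin protein kinase c71920_g1, the most abundant of the others with a mean of 60.3 FPKM, went from 17.5 FPKM at 5 DAP to 95.4 FPKM at 25 DAP in controls. Its cold differences were -0.01 ± 0.18 at 6 h and -0.04 ± 0.18 at 12 h, not called. Among control libraries the highest value was at 25 DAP for 39 kinase unigenes (32.2%, against 14.9% of all unigenes), at 30 DAP for 32 (26.4% against 29.1%) and at 5 DAP for 25 (20.7% against 24.8%). This rests on 1 library per stage and has no test.

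At single stages, large changes were few. After 6 h, 4, 5, 6, 3, 5 and 6 of the 121 kinase unigenes from 5 to 30 DAP were at least 4-fold higher or lower than control on the log2(FPKM + 1) scale. The same share over all unigenes was 8.25, 5.5, 4.57, 3.61, 6.24 and 6.0%. After 12 h the counts were 5, 3, 7, 3, 7 and 5, against 5.49, 4.12, 5.21, 5.67, 8.18 and 7.14% of all unigenes. Each compares 1 library with 1 library and has no test. The share of kinase unigenes, 2.48 to 5.79%, was below the background at 10 of these 12 comparisons. Of these changes 21 were upward and 8 downward at 6 h (72.4% upward, against 66.3% over all unigenes), and 14 upward and 16 downward at 12 h (46.7% against 51.8%). Over both durations the share upward was 59.3%, against 58.9% over all unigenes.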

How the data were processed

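RNA of whole siliques was sequenced as 18 libraries, 6 stages by 3 durations. The authors assembled the reads without a genome, annotated the transcripts and deposited FPKM values, estimated with RSEM, for transcripts that edgeR had called between some pair of libraries. FPKM had been scaled between libraries by TMM. The table's name speaks of counts, but its values have decimals and fit FPKM as the methods describe, and the read totals of the libraries were not used here.

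FPKM of isoforms were summed per unigene, and log2(FPKM + 1) was fitted with limma 3.58.1 in R 4.3.3, with duration as factor and stage as block, two-sided, and Benjamini-Hochberg adjustment over all 9446 unigenes. The stage numbers mark siliques of the same age, which is where the pairing comes from. Early and late stages were compared on 6 stage means. Single stages have no test and are described past 4-fold. Scripts were tested on simulated data.

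The rule for named unigenes took, among those called in 1 direction at 5 or more of 6 stages, the smallest p per direction and duration (up to 5 receptor-like, 5 other and 4 of each further class), up to 5 per direction for 12 h against 6 h and for late against early stages, up to 4 per direction for the phase difference, the most abundant unigene of each class, CIPK9, CIPK21, and up to 2 called unigenes of each partner list. Further members were named after their values were seen. The members, classes, partner and marker lists were chosen with earlier results of these data known. Alternatives were median ratio scaling, a pseudocount of 0.1, a mean of at least 1 FPKM, no block, read class as a term, transcripts fitted separately, domain-bearing isoforms alone, control libraries alone, and leaving out a stage or the 5 DAP library of 6 h. SnRK2.6 was not analysed here.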

Additional observations from a re-analysis of the deposited data

Results flagged for a closer look

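Among the 36 unigenes named by rule, each with 6 stage changes at 6 h and at 12 h, 4 of 72 sets had 1 stage far from the other 5 (Dixon's test). Most of these unigenes were named for changes in the same direction at 5 or more of 6 stages. The 6 h and 12 h sets of a unigene also share controls. The nominal rate of the test, about 1 in 20, therefore need not hold for these sets, and no conclusion is drawn from the count. The receptor-like kinase c68362_g1 changed after 6 h by 0.126 at 10 DAP and by 1.24 to 1.75 at the other stages. The unnamed kinase c59863_g1 changed after 6 h by 2.28 at 10 DAP and by 0.584 to 1.14 elsewhere. The wall-associated kinase c65493_g2 changed after 12 h by -1.54 at 25 DAP and by -0.826 to -0.472 elsewhere. The ankyrin protein kinase c71920_g1 changed after 12 h by -0.898 at 5 DAP and by 0.002 to 0.521 elsewhere. All are log2 differences of 1 library against 1 library.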

How the results depend on the processing

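No named unigene that was called reversed its direction under any alternative run. The balance of calls at 12 h did turn, from 9 higher and 12 lower to 14 and 11 under median ratio scaling, 7 and 5 without the block, 8 and 4 with read class as a term, 8 and 7 without 15 DAP and 13 and 12 without 25 DAP. Of 62 calls of named unigenes, 22 held under every alternative. Of the 8 CBL-interacting unigenes, 5 were called at 6 h under every alternative except the fit without block, which called 3.

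Without the replicate block, which pairs libraries of the same stage, 8 kinase unigenes rose and 4 fell at 6 h (from 18 and 12, with 12 of the 30 calls shared), 5 fell at 12 h (from 12), the direct comparison of 12 h with 6 h had 0 higher and 1 lower (from 5 and 8), 9 rose and 3 fell at early stages (from 15 and 5), and 5 rose and 3 fell at late stages (from 11 and 10). Among the 6 h calls lost without the block were those of CIPK4 (limma, adjusted p = 0.0516), MAPKKK15 (0.0641) and c68362_g1 (0.123). Those of c75029_g1 (0.134), c59863_g1 (0.165) and c67757_g1 (0.314) were lost as well. With read class as a term, 4 fell at 12 h, the comparison of 12 h with 6 h had 0 higher and 0 lower, and 4 rose and 2 fell at early stages. Median ratio scaling gave 14 higher at 12 h (from 9) and 1 higher late than early (from 2), and moved the median late against early difference of all unigenes from -0.02 to -0.13. A mean of at least 1 FPKM gave 3 higher at 12 h than at 6 h and 4 higher late than early. A pseudocount of 0.1 gave 1 higher at 12 h than at 6 h, 7 that rose at late stages and 1 higher late than early. Without the 5 DAP library of 6 h, 3 were higher at 12 h than at 6 h and 0 higher late than early. Late against early, control libraries alone gave 6, with 1 of the 2 calls shared, and transcripts fitted separately gave 5.

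Leaving out 1 stage at a time gave 13 to 21 higher and 8 to 13 lower calls at 6 h, 8 to 13 higher and 7 to 17 lower at 12 h, and 0 to 4 higher and 4 to 8 lower at 12 h against 6 h. It gave 8 to 15 higher and 2 to 6 lower at early stages, 3 to 11 higher and 2 to 10 lower at late stages, and 0 to 15 higher late than early. The 12 single-stage comparisons held 151 higher and 112 lower changes past 2-fold, and 87 and 71 past 4-fold with a pseudocount of 0.1, against 35 and 24. Apart from counts that follow from a fold limit, fewer libraries or fewer unigenes tested, the cause of these differences was not tested. The deposited values are FPKM without read counts, so counting error per unigene is not given.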
